A study of Mus musculus with 4 samples.

Results

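The genes that write, copy and remove DNA methylation were followed in mouse morulae, embryos that have compacted and not yet formed a cavity, after knockdown of Nr1h2, the gene of the oxysterol receptor LXRβ. The members are the 9 genes named Dnmt1, Dnmt3a, Dnmt3b, Dnmt3l, Uhrf1, Tet1, Tet2, Tet3 and Tdg. They were found by symbol, and all 9 were present among the 13658 genes of the authors' deposited table. All 9 also had an adjusted p there, so none was lost to the filter on low counts. Wild-type fertilized eggs were injected at the 1-cell stage with 4 to 5 pL of siRNA at 100 µM, either the non-targeting pool (siNT, 2 samples) or a pool against Nr1h2 (siNr1h2, 2 samples), and grown in M16 medium to the morula stage. The labels do not give the number of embryos in a sample or say whether replicates came from separate injections, so the p-values measure the spread between these samples, which may be technical. An siRNA pool lowers a transcript without deleting its gene, and the oocyte's stored protein is not touched by it. In whole embryos, fewer cells of a type and less RNA per cell cannot be told apart.

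DNA methylation in mammals is placed on cytosines that precede guanines. Dnmt3a and Dnmt3b set new marks, with Dnmt3l as a partner that has no catalytic activity of its own. Dnmt1 copies marks onto the new strand after replication, guided by Uhrf1, which recognises half-methylated DNA. Tet1, Tet2 and Tet3 oxidise methylated cytosine, and the glycosylase Tdg cuts out the most oxidised products so that repair can restore plain cytosine. Between fertilization and the blastocyst the genome loses most of the methylation it received from the gametes, in which Tet3 stored in the egg and a limited supply of nuclear Dnmt1 are known to take part.

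The targeted transcript was checked first. By the authors' deposited table, Nr1h2 was 5.03 times lower after its own siRNA (95% interval 3.89 to 6.50, DESeq2 adjusted p = 3.61e-31). All 9 morula markers looked up were present in the authors' deposited table, from Sox2 at a mean normalized count of 90.8 to Nanog at 2181. Of these 9, the keratin gene Krt8 was the 1 called, at -0.50 ± 0.14 on the log2 scale (adjusted p = 0.0211, authors' deposited table). Of the markers of other cells, 2 of 7 for cumulus and granulosa cells had rows, both with means under 3 in the authors' deposited table, and 0 of 5 for sperm did. Hba-a1 and Cd74 were the 2 of 5 blood and immune markers with rows, at means of 24.6 and 328 in the authors' deposited table, which put their log2 fold changes at -0.18 ± 0.57 (SE) and 0.42 ± 0.19 (adjusted p = 0.933 and 0.292). The part of other cells in the results was not tested.

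The promoters of the members are given first, because promoters are where a nuclear receptor can bind and because CpG density sets how much substrate the enzymes find at their own genes. RefSeq (build GRCm38.p6, a later build than the mm9 of the submitters' processing notes) holds 16 windows for the 9 members. Each covers 250 bases before to 50 after an annotated start. Tet2, an oxidase, has the most CpG-rich window of the 16, with 57 CpG in 300 bases, more than 99.8% of 32851 promoter windows. The 3 starts of Dnmt3l hold 6, 4 and 3 CpG, against a median of 7 over all windows. Dnmt1 has 3 annotated starts, of which the most upstream holds 2 CpG and the most downstream 33. The deposited values are per gene and do not separate these starts. The 120 bases before 3 of these starts show the contrast, with each CpG in capitals. The Tet2 stretch lies at chr3:133544391-133544510 on the minus strand, the first Dnmt3l start at chr10:78042167-78042286 on the plus strand, and the most upstream Dnmt1 start at chr9:20959889-20960008 on the minus strand.

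Tet2: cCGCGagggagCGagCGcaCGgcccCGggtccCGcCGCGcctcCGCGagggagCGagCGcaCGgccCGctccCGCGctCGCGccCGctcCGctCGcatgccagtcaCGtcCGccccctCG

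Dnmt3l: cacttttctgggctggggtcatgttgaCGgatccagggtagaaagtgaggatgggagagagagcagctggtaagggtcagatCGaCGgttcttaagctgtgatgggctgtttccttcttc

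Dnmt1: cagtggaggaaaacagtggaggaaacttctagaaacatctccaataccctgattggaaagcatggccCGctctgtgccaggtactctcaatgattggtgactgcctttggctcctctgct

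Motifs were looked up as exact letters on both strands. LXRβ pairs with retinoid X receptors on direct repeats of AGGTCA spaced by 4 bases. That full repeat was in 0 of the 16 windows of the members and in 0.0152% of all windows. A single AGGTCA was in 3 of the 16 windows, those of Tet1, Dnmt3a and Uhrf1, and in 16.3% of all windows. The letters TTTCGCGC, the classic binding sequence of E2F factors of the cell cycle, were in a window of Dnmt1 and a window of Uhrf1 and in 0.323% of all windows. Of the other motifs, GGGCGG was in 12 of the 16 windows (35.7% of all windows), CCAAT in 6 (37.4%), CACGTG in 3 (7.15%) and TATAAA in 0 (13.6%). The windows compared were not matched on CpG or GC content, and some windows of Dnmt3a overlap, so these shares only describe. The motifs are shown in their surroundings with the match in capitals, where TGACCT and GCGCGAAA are AGGTCA and TTTCGCGC read from the other strand. In Dnmt3a the AGGTCA match overlaps a CACGTG match. Both Uhrf1 matches lie in the same window, 185 and 162 bases before the start. The stretches are Tet1 at chr10:62887351-62887380 (minus strand), Dnmt3a at chr12:3891656-3891685 (plus), Uhrf1 at chr17:56304139-56304168 and chr17:56304117-56304146 (plus), and Dnmt1 at chr9:20952824-20952853 (minus). The Dnmt1 match lies 219 bases before the start of its window, within an exon of another annotated transcript.

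Tet1, AGGTCA: gggggcgagggcTGACCTggctgggagtac

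Dnmt3a, AGGTCA: gtggggcccacgTGACCTggagttctagac

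Uhrf1, AGGTCA: caggcgtctccgAGGTCAtctaggccaatc

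Uhrf1, TTTCGCGC: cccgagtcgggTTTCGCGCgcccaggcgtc

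Dnmt1, TTTCGCGC: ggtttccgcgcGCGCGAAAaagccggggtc

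These matches describe letters and not occupied sites, and no binding data were used here.

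Levels were compared per transcript length, as the authors' mean of normalized counts across the 4 samples, divided by the kilobases of the longest coding transcript. Dnmt3l stood highest of the 9, at 568 counts per kb from a mean of 1035 in the authors' deposited table, above 86.3% of genes. Tet2 followed at 194 and Dnmt3b at 184 counts per kb, where the authors' deposited table has means of 1780.0 and 795. The first of these levels was 3.09 times that of Dnmt3b. Uhrf1 stood at 125 counts per kb (mean 449.8 in the authors' deposited table). Dnmt3a, Tet1 and Dnmt1 came next at 61.0, 45.8 and 45.4 counts per kb, where the authors' deposited table has means of 591, 658 and 267. By the longest transcript these 3 lay below the median of 65.6 counts per kb over genes with an adjusted p. That median was computed for this length only, and other lengths move Dnmt3a and Tet1. Over all genes with a length, the base used for Dnmt3l, these 3 genes stood above 54.1%, 49.4% and 49.2%. Tdg at 18.6 and Tet3 at 5.00 counts per kb were the lowest, where the means in the authors' deposited table were 65.2 and 54.5. The processed pseudogene Gm9855 matches Tdg over 1194 bases at 99.2% identity and had a mean of 156 in the authors' deposited table. Reads may be shared, so the low place of Tdg is uncertain. No values per sample were used here, so the order carries no error, and neighbours as close as Tet2 and Dnmt3b or Tet1 and Dnmt1 are not told apart.

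**Figure D1:**
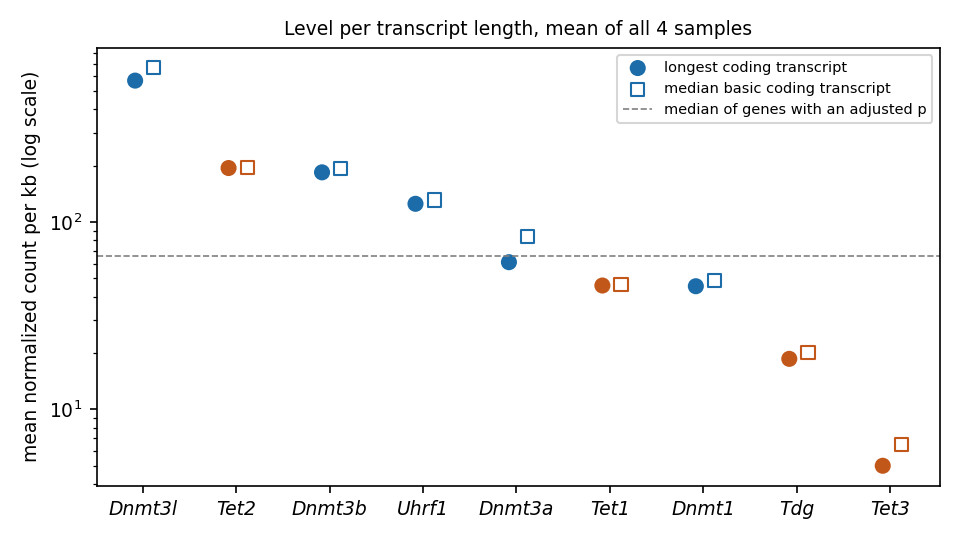
Mean normalized count per kilobase of transcript (log scale) for each of the 9 genes, over all 4 samples, with writers in blue and erasers in orange; filled points use the longest coding transcript and open squares the median coding transcript of the basic annotation. By the longest coding transcript Dnmt3l is highest at 568 and Tet3 lowest at 5.00, and the dashed line marks the median of 65.6 over genes with an adjusted p. The median of all coding transcripts, which gives another order, is not drawn.

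By the longest coding transcript, 1 gene within each family held most of the level per length. Dnmt3l made up 66.2% of the summed counts per kb of the 4 Dnmt genes, Dnmt3b 21.4%, Dnmt3a 7.11% and Dnmt1, the maintenance enzyme, 5.29%. Uhrf1 was 2.76 times Dnmt1 per kb. Tet2 made up 79.3% of the summed counts per kb of the 3 Tet genes, Tet1 18.7% and Tet3, the form stored in the egg, 2.04%. Tet2 was thus 4.24 times Tet1 and 38.8 times Tet3 per kb. With the median transcript of the basic annotation, a length chosen after the values were seen, Dnmt3l made up 67.2% of its family and Tet2 78.7%. With the median of all coding transcripts, short fragments included, the shares were 40.8% for Dnmt3l and 24.3% for Tet2, with Dnmt3a at 44.5% and Tet1 at 75.1%. By that length Tet1 (1160.0 counts per kb) and Dnmt3a (726) stood above Dnmt3l (666), and Tet1 above Tet2 (375). The shares and the order of the genes therefore depend on the length used.

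None of the 9 genes passed the test after Nr1h2 knockdown. At an adjusted p of 0.05, 0 of 9 were called in the authors' deposited table, where DESeq2 called 1.98% of 12069 genes, 0.456% as higher and 1.52% as lower. At an unadjusted p of 0.05, again 0 of 9 passed, against 13.3% of all genes in the authors' deposited table. That count depends on the scaling. Centred on ribosomal protein genes, 4 of 9 had an unadjusted p under 0.05, all lower (Dnmt3a, Dnmt3l, Tet2 and Tdg), where 17.4% of all genes did, and 0 of 9 had an adjusted p under 0.05. With so few genes called at an adjusted p of 0.05, a count of 0 among 9 is near the background and is not a result about the members. Their median log2 fold change was -0.19 and that of all genes with an adjusted p was 0.00, with 4 members above 0 and 5 below. The median size of change regardless of direction was 0.20 among members and 0.21 among all genes with an adjusted p.

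The maintenance pair lay above 0 without passing. Dnmt1 had 0.19 ± 0.20 (SE) as its log2 fold change in the authors' deposited table (DESeq2 adjusted p = 0.758). That is a level of 114% of siNT with a 95% interval from 86.8% to 149%. Its mean and fold change imply group levels of about 249 normalized counts in siNT and 284 in siNr1h2, with equal group sizes assumed. Uhrf1, which brings Dnmt1 to replicated DNA, had 0.23 ± 0.17 as its log2 fold change in the authors' deposited table (adjusted p = 0.595), or 117% of siNT (93.3% to 147%). The implied levels were about 415 and 485 normalized counts. A processed pseudogene of Uhrf1 on the X chromosome, Gm5648, matches its transcript over 1590 bases at 98.3% identity, so reads may be shared.

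Of the de novo writers, Dnmt3a and Dnmt3l lay below 0 and Dnmt3b near 0. Dnmt3a, which sets new marks, had -0.20 ± 0.16 as its log2 fold change in the authors' deposited table (adjusted p = 0.624), or 87.1% of siNT (70.5% to 108%). Its implied levels were about 632 normalized counts in siNT and 550.3 in siNr1h2. Dnmt3b, the other active de novo enzyme, stood at 0.06 ± 0.14 in the authors' deposited table (adjusted p = 0.910), or 104% of siNT (85.8% to 127%), with implied levels of about 778 and 812. Centred on ribosomal protein genes its value was -0.05. The rodent copy Dnmt3c matches Dnmt3b over 1434 bases at 93.9% identity, and the value of Dnmt3b is uncertain to that extent. Dnmt3l, the cofactor, had -0.21 ± 0.14 as its log2 fold change in the authors' deposited table (adjusted p = 0.520). This was 86.3% of siNT (71.8% to 104%), from about 1111 to 959 implied normalized counts.

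**Figure D2:**
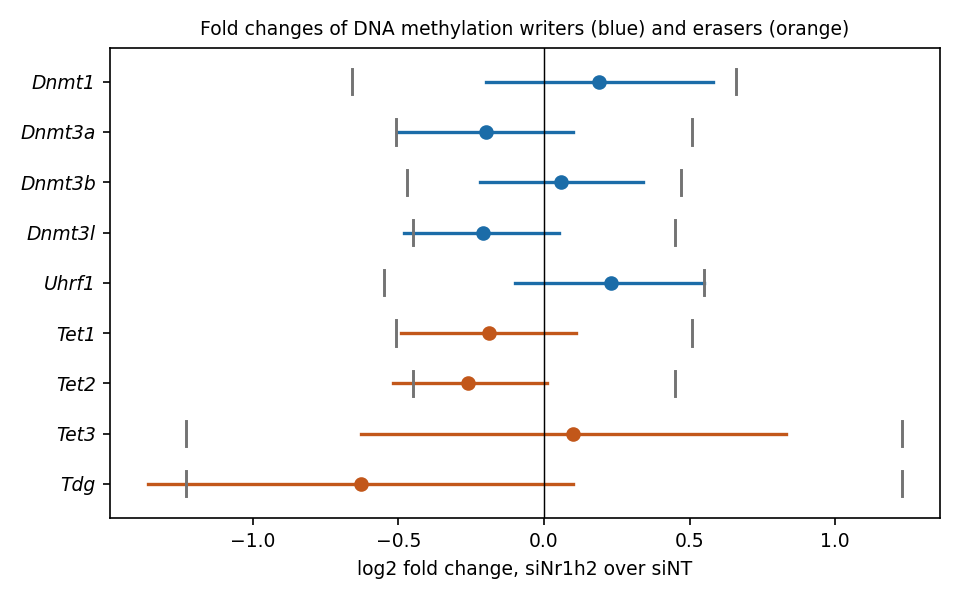
Log2 fold change of each gene, siNr1h2 over siNT, with its 95% interval from the normal distribution; grey ticks mark the change in either direction that the call limit of the table required at that gene's standard error. All 9 intervals include 0 and no point reaches a tick, with Tet3 and Tdg the widest.

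Among the erasers, Tet2 had the smallest p of the 9 members. Tet2, an oxidase, had -0.26 ± 0.14 as its log2 fold change in the authors' deposited table (unadjusted p = 0.0570, adjusted p = 0.397). This was 83.7% of siNT (69.6% to 101%), with implied levels of about 1938 and 1622 normalized counts. Tet1 had a similar value, -0.19 ± 0.15 in the authors' deposited table (adjusted p = 0.650), or 87.7% of siNT (71.1% to 108%). Its implied levels were about 701 and 615 normalized counts. For Tet3 the authors' deposited table gave a log2 fold change of 0.10 ± 0.37 (adjusted p = 0.947), with an interval from 64.5% to 178% of siNT and implied levels of about 52.6 and 56.4. It was -0.01 when centred on ribosomal protein genes.

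Tdg, the glycosylase, had the value farthest from 0 of the 9, with -0.63 ± 0.37 as its log2 fold change in the authors' deposited table (unadjusted p = 0.0918, adjusted p = 0.473). That was 64.6% of siNT, with an interval from 38.9% to 107% and implied levels of about 79.3 and 51.2 normalized counts. Its reads are the least certain. Processed pseudogenes named Tdg-ps, Gm5597 and Gm9855 match its transcript over 2968, 1193 and 1194 bases at 98.7%, 99.3% and 99.2% identity. Gm9855 has a row of its own, with a mean normalized count of 156 in the authors' deposited table, above that of Tdg, and -0.33 ± 0.30 as its log2 fold change (adjusted p = 0.703). How the authors' counting assigned reads that match both is not stated in the sources used here. The neighbouring gene Glt8d2 overlaps Tdg by 367 bases on the opposite strand, and the library kit keeps no strand, but Glt8d2 had a mean of only 2.79 in the authors' deposited table.

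**Figure D3:**
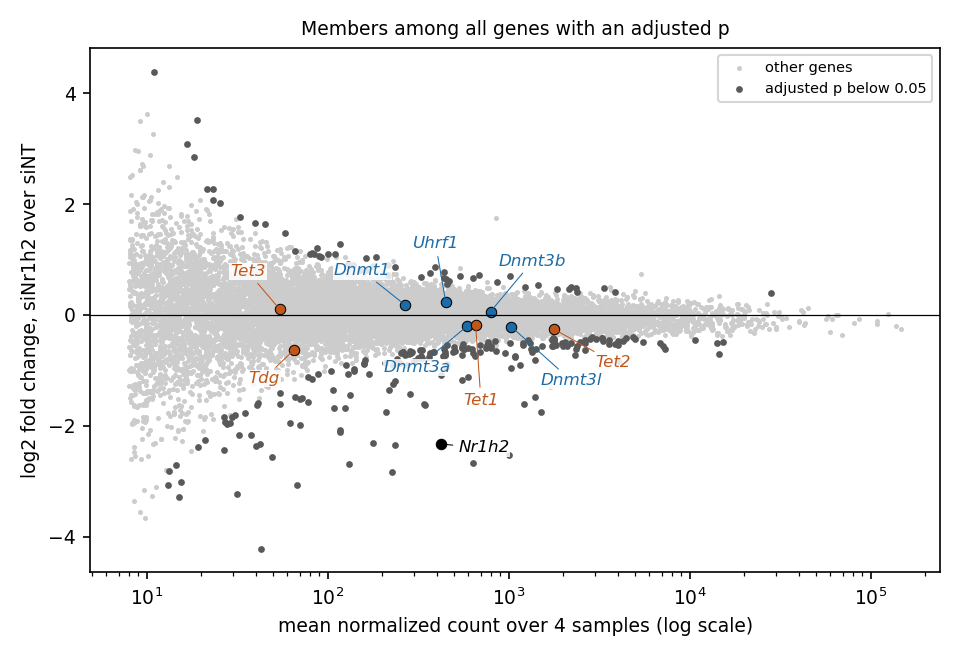
Log2 fold change (siNr1h2 over siNT) against mean normalized count over 4 samples (log scale) for the 12069 genes with an adjusted p; dark points are the 239 called genes, blue and orange points the writers and erasers, and the black point Nr1h2. All 9 members lie within the grey cloud of genes that were not called, Tdg farthest from 0 at -0.63 and Nr1h2 at -2.33.

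The precision of the table sets what could have been seen. A gene was called when its Wald statistic, the fold change over its standard error, passed about 3.30. At their standard errors Dnmt3l and Tet2 would have needed a change of 1.36 times, Dnmt3b of 1.39, Tet1 of 1.42, Dnmt3a of 1.43, Uhrf1 of 1.46 and Dnmt1 of 1.58. Tet3 and Tdg, with fewer counts, would have needed 2.35 times. Smaller changes would not have been called at these standard errors. A change of the size of Nr1h2 itself, 5.03 times, lies outside the 95% interval of each of the 9 genes.

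Differences between members were set against their combined errors, taken as independent because the table gives no covariance. The 12 pairs were chosen after the values were seen. Dnmt3a and Dnmt3b, the paralogous de novo enzymes, differed in log2 fold change by -0.26 (95% interval -0.68 to 0.15). Dnmt3l differed from Dnmt3a by -0.01 (-0.42 to 0.39), and Tet2 from Tet1 by -0.07 (-0.47 to 0.33). Uhrf1 and Dnmt1 differed by 0.04 (-0.47 to 0.55). The intervals of 2 pairs lay clear of 0, Uhrf1 against Dnmt3l (0.44, 0.02 to 0.86) and Uhrf1 against Tet2 (0.48, 0.06 to 0.90). With intervals widened for 12 pairs by the Bonferroni rule, 0 pairs lay clear of 0. These intervals do not show that the paired genes behave alike, since most admit a difference of 0.4 or more.

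Around the members, 99 genes of 6 related processes were looked up, and 96 had rows, 92 with an adjusted p. Of these, Xrcc1 was higher and Pcna lower in the authors' deposited table, 2.17% of the 92 against 1.98% of all genes, so the share called was near the background. At an unadjusted p of 0.05, 19 of the 92 passed, or 20.7%, against 13.3% of all genes. The median log2 fold change of the 96 was -0.01.

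Xrcc1, the scaffold protein that gathers the enzymes of base excision repair after a glycosylase such as Tdg has cut, was higher by 1.58 times in the authors' deposited table (95% interval 1.25 to 1.99, DESeq2 adjusted p = 0.0123) at a mean normalized count of 439.9. Of 18 genes of base excision repair with rows, it was the 1 that passed. Fen1, the flap endonuclease, stood at 0.44 ± 0.17 in the authors' deposited table (adjusted p = 0.168). Nthl1, another glycosylase, stood at -0.62 ± 0.30 in the authors' deposited table (adjusted p = 0.349). Apex1, the main abasic-site nuclease and the most abundant gene of this list, stood at 0.00 ± 0.13 in the authors' deposited table. The median of the list was 0.02.

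Pcna, the replication clamp to which Dnmt1 binds, was lower by 1.32 times in the authors' deposited table (1.12 to 1.55, adjusted p = 0.0473). Centred on abundant genes it no longer passed (adjusted p = 0.0897). It was the 1 gene of 23 cofactors of maintenance and targeting to pass. Their median log2 fold change was -0.11, with 10 above 0 and 13 below. Cdca7 and Lig1, on the higher side, stood at 0.30 ± 0.17 and 0.26 ± 0.16 (DESeq2 adjusted p = 0.451 and 0.488). Among the cofactors below 0, Dppa3, which shields the maternal genome from oxidation and keeps Uhrf1 from chromatin, had the highest mean normalized count of the whole table. That mean was 147367, or 1.15% of the summed means. The log2 fold change of Dppa3 was -0.26 ± 0.11 in the authors' deposited table (adjusted p = 0.271). Usp7, a deubiquitinase that binds Dnmt1 and Uhrf1, stood at -0.24 ± 0.12 in the authors' deposited table (adjusted p = 0.381) and Hells, a remodeller needed for methylation, at -0.17 ± 0.16 (adjusted p = 0.720).

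Of 9 genes with rows that were listed as readers of methylated CpG, 0 passed in DESeq2 and 1 had no adjusted p. At an unadjusted p under 0.05 there were 3. Over all genes with an adjusted p the shares were 1.98% called and 13.3% at an unadjusted p under 0.05. Whether each listed gene binds methylated CpG was not tested. Zbtb33 (Kaiso) had -1.29 ± 0.42 as its log2 fold change in the authors' deposited table (adjusted p = 0.0734) at a mean of 47.2, and Mbd5, of the same domain family as Mbd3, stood at -1.42 ± 0.57 (adjusted p = 0.216) at a mean of 23.6. Mbd3, a subunit of the NuRD complex, stood at 0.48 ± 0.18 in the authors' deposited table (adjusted p = 0.176). Of 14 regulators of the TET enzymes with rows, 0 passed and 3 had an unadjusted p under 0.05, against 1.98% and 13.3% of all genes. Mgea5, which removes the sugar that Ogt adds, stood at -0.38 ± 0.14 in the authors' deposited table (adjusted p = 0.161), while Ogt, a binding partner of the TET proteins, stood at 0.00 ± 0.13 (adjusted p = 0.998). Ddb1 and Cul4b, of the ubiquitin ligase that modifies TET proteins, stood at 0.27 ± 0.12 and -0.28 ± 0.13 in the authors' deposited table (adjusted p = 0.304 and 0.311).

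Genes that supply the methyl donor S-adenosylmethionine showed 0 calls among 16, of which 1 had no adjusted p. At an unadjusted p under 0.05 there were 2. Over all genes with an adjusted p the shares were 1.98% and 13.3%, so both counts were near the background. Bhmt, which remethylates homocysteine from betaine, was the most abundant with a mean of 16367 and stood at 0.13 ± 0.11 in the authors' deposited table (adjusted p = 0.676). Mat2a, which makes the donor itself, stood at 0.09 ± 0.12 in the authors' deposited table (adjusted p = 0.800). Ahcyl2, a relative of the enzyme that clears the spent donor, stood at -0.64 ± 0.27 in the authors' deposited table (adjusted p = 0.252), and Mthfd1, of the folate cycle, at 0.28 ± 0.14 (adjusted p = 0.368).

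Germline genes that DNA methylation keeps silent in somatic cells were also looked up. Whether their RNA follows the activity of the enzymes in morulae was not tested. Of 17, 0 passed in DESeq2 and 2 had no adjusted p, where 1.98% of all genes with an adjusted p were called. At an unadjusted p under 0.05 there were 5, against 13.3% of all genes, and no test of the list was run. The median log2 fold change of the 17 was -0.21, with 10 below 0 and 7 above. Dazl, a germ-cell RNA-binding protein gene, stood at -0.93 ± 0.32 in the authors' deposited table (adjusted p = 0.105), and Ddx4, the germ-cell helicase gene, at -0.65 ± 0.26 (adjusted p = 0.203). Tex101 stood at -0.72 ± 0.32 and Brdt, a testis bromodomain gene, at -0.70 ± 0.31 in the authors' deposited table (adjusted p = 0.286 and 0.297), and Hormad1, a meiotic chromosome gene, at 0.36 ± 0.18 (adjusted p = 0.366). Sycp3, the most abundant of the list with a mean of 2718, stood at -0.07 ± 0.13 in the authors' deposited table (adjusted p = 0.892). The series measured RNA, and the methylation of these genes was not analysed here.

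**Figure D4:**
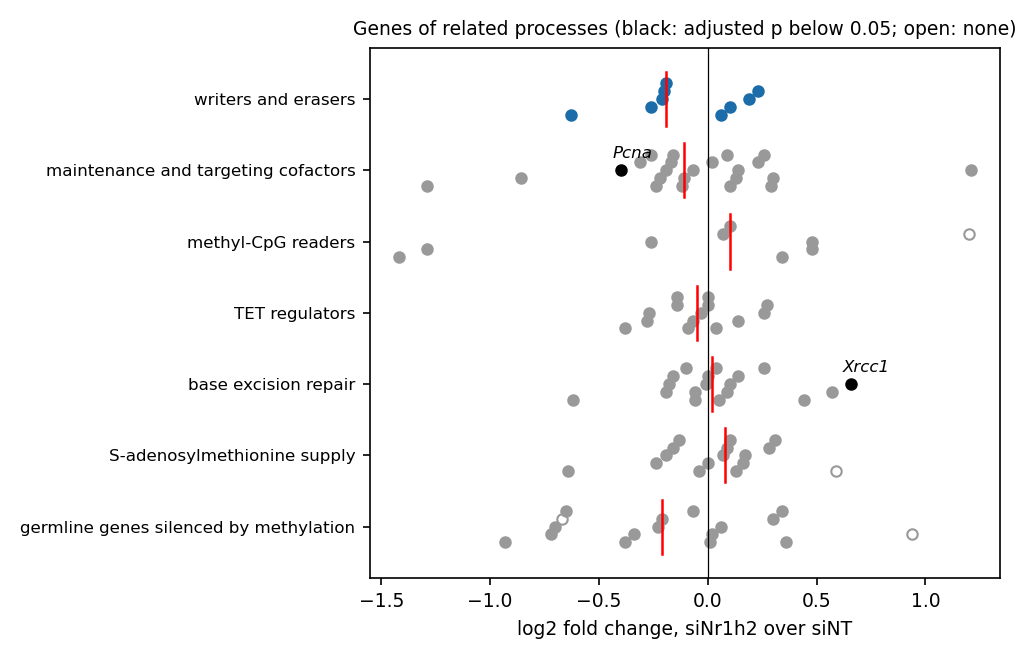
Log2 fold change (siNr1h2 over siNT) of each gene in the writers and erasers (blue) and in the 6 related lists (grey); black points had an adjusted p under 0.05, open points had none, and red bars are list medians. Xrcc1 at 0.66 and Pcna at -0.40 are the black points, and the medians run from -0.21 for germline genes to 0.10 for methyl-CpG readers.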

How the data were processed

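Polyadenylated RNA of 4 morula samples was made into cDNA with SMART-Seq v4 and into libraries with Nextera XT, per the labels' protocols. The submitters' processing notes list DESeq2, edgeR, Cufflinks 2.2.1, HTSeq 0.12.4, RSEM and STAR, with the build mm9 and no roles. The 1 deposited table has DESeq2's columns, per the file headers. It holds the authors' mean normalized count (signal: size-factor-scaled counts), the deposited log2 fold change, its standard error and Wald statistic (deposited scores), and the authors' p-value and adjusted p-value. It holds no values per sample, so depth is unknown, and 0 columns of such values were left out. The statistic, p-value and Benjamini-Hochberg adjustment over 12069 genes were recomputed and matched. The other 1589 genes, with means up to 8.00, had no adjusted p.

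From these values, 95% intervals (normal distribution), percentages of siNT, implied group levels and the fold needed for a call were computed with Python 3.11.15, pandas 2.3.3 and scipy 1.17.1. Implied levels assume that the mean over samples is the mean of the group levels. Transcript lengths came from GENCODE M21, matched by symbol for 94.6% of genes. Shared sequence means at least 90% identity over at least 200 bases (blastn). Calls and adjustments were tested on simulated data. The members and lists were chosen with earlier results of these data known. The text names all 9 members, and in each of the 6 related lists the called genes, the 2 smallest p-values and the highest mean. Nthl1, Usp7, Hells, Cdca7, Lig1, Mbd5, Ogt, Cul4b, Mat2a, Tex101, Brdt, Hormad1, Gm9855, Glt8d2 and the cell markers given as examples were added after their values were seen. Alternatives covered the call rule, the scaling and the transcript length. The value of 1 gene is not reported here.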

Additional observations from a re-analysis of the deposited data

How the results depend on the processing

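The count of 0 members called was the same under each alternative run one at a time. The call rules were thresholds of 0.01, 0.1 and an unadjusted p of 0.05, other adjustments and filters, and a minimum change of 1.5 times. Also run were 3 centrings and members with a mean of at least 100. The 0.01 threshold, Holm adjustment, the t distribution, the minimum change and the restriction by mean could only remove calls. The smallest unadjusted p among the members was 0.0570, and an adjusted p is never below its unadjusted p. Adjustment over every gene and the filter on a mean of at least 50 therefore could not call a member. The 0.1 threshold and the unadjusted rule read the same deposited test, whose smallest member adjusted p was 0.397. The 0 under all these rules was fixed in advance and says nothing about stability. Only the centrings could have changed it. Centring on all genes moved values by 0.00 on the log2 scale, so it nearly repeated the main run. The looser rules combined with a centring, added after seeing the data, gave other counts in 1 case. Centred on 70 ribosomal protein genes, a shift of 0.11 on the log2 scale, 4 members had an unadjusted p under 0.05, all lower: Tet2 at 0.00662, Dnmt3l at 0.0173, Dnmt3a at 0.0462 and Tdg at 0.0478. Of these Tet2 had an adjusted p under 0.1 (0.0993). The other 2 centrings gave 0 by either rule. Under the ribosomal centring the log2 fold changes of Dnmt3b and Tet3 changed sign, to -0.05 and -0.01. The other 7 members kept their direction under the 3 centrings. The count over all genes was 239 (55 higher, 184 lower). It was 109 at 0.01, 395 at 0.1, 1602 unadjusted, 49 with Holm adjustment, 494 centred on ribosomal protein genes (36 higher, 458 lower) and 224 centred on abundant genes (82 higher, 142 lower). With a t distribution of 2 degrees of freedom it was 0, with 68 genes at an unadjusted p under 0.05 and a smallest adjusted p of 0.948; with so few degrees of freedom no gene reached the threshold, Nr1h2 included, so this says nothing about stability. The count over the related lists was 2, and it was 0 at 0.01, 0 with Holm, 0 with the t distribution and 19 unadjusted. It was 1, Xrcc1, with adjustment over every gene, with a minimum change and centred on abundant genes. Centred on ribosomal protein genes it was 6, with Dazl, Dppa3, Mgea5 and Zbtb33 lower as well. With the median length of all coding transcripts, short fragments included, levels per kb were 726 for Dnmt3a, 1160.0 for Tet1, 375 for Tet2, 9.17 for Tet3 and 67.2 for Tdg. Dnmt3l, at 666, was then below Tet1 and Dnmt3a. No paired analysis was possible because the table holds no values per sample. For the same reason leaving out replicates and a second count tool were not run.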
